A study of Homo sapiens with 18 samples.

Results

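The 10 genes described here handle zinc in the cell: the metallothioneins MT2A, MT1X, MT1E, and MT1F, the zinc-sensing transcription factor MTF1, the zinc exporters SLC30A1 and SLC30A5, and the zinc importers SLC39A6, SLC39A10, and SLC39A1. They were chosen by name for their role in zinc homeostasis, with earlier results of these data known, and are 10 of the 22034 genes in the count table. Counts of members called, set beside the share of all genes, therefore describe a list that was not chosen blind. All 10 passed the filter on low counts. Gene expression was measured by RNA-seq of ribosomal RNA-depleted total RNA in 18 samples of VCaP, a human prostate cancer cell line with the TMPRSS2:ERG fusion, with 3 samples in each of 6 groups. In the first experiment, VCaP-shERG cells, which carry a doxycycline-inducible hairpin against ERG (pLKO-Tet-on), were given vehicle (shERG-DMSO) or 1 µg/mL doxycycline (shERG-Dox). In the second, parental VCaP cells were given DMSO or 50 µM PBITE-1, a small molecule made to bind the Pointed domain of ERG, for 4, 8, or 12 h. Here an experiment means the samples of a line, and the labels do not say whether the lines were handled apart. All groups share the VCaP background and its growth medium. The labels give neither the duration of doxycycline nor the collection time of the vehicle samples. No sample of doxycycline without the ERG hairpin was analysed here, so doxycycline and loss of ERG cannot be told apart. Likewise, each PBITE-1 time was set against the same 3 DMSO samples. Time in culture or in vehicle therefore cannot be told apart from the duration of PBITE-1.

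Zinc is held in the cytosol at a very low free concentration, and the proteins that buffer, export, and import it adjust to supply. When free zinc rises, MTF1 binds zinc through its zinc fingers, enters the nucleus, and activates genes whose promoters hold metal response elements, among them the metallothioneins and SLC30A1. SLC30 (ZnT) transporters move zinc out of the cytosol, and SLC39 (ZIP) transporters move it in. Normal prostate epithelium accumulates zinc to unusually high levels for secretion, and prostate cancer cells are known to hold less of it.

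The sequences that carry metal response elements differed between the members, and are shown because MTF1 acts through them. The element core was searched as TGCACNC or TGCGCNC on both strands in the 250 bases before each RefSeq start (GRCh38.p14). The forms differ at 1 fixed base, so no position matches both. Of the 10 members, 8 had a promoter window, and MT1E and MT1F had none. The MT2A window held 7 cores and the MT1X window held 4, whereas SLC30A1 and SLC39A6 held 1 each. For SLC39A1, 1 of its 2 windows held 1 core. No core was present in the windows of MTF1, SLC30A5, or SLC39A10. Over all 35116 promoters, 24.8% held at least 1 core, 0.370% held at least 4, and 0.0313% held at least 7. A single core was thus common, and the counts of MT2A and MT1X were rare. A match describes letters only and shows no binding. Windows were set by RefSeq starts alone. That of SLC30A1 is at chr1:211579161, upstream of the start at chr1:211578742 in the annotation used for gene coordinates. The bases just before the latter start were not searched, so the SLC30A1 count holds for its RefSeq window only. Shown first are the 204 bases of the MT1X window that lie before its first annotated exon, and the 250 bases of the SLC30A1 window, 5′ to 3′ on the strand of the gene, with the cores in capitals.
MT1X, chr16:56682220-56682423, plus strand: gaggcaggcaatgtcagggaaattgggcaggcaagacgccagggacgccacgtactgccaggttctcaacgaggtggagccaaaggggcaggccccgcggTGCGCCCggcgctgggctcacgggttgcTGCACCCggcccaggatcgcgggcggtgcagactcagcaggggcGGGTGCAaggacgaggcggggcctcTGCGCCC
SLC30A1, chr1:211579162-211579411, minus strand: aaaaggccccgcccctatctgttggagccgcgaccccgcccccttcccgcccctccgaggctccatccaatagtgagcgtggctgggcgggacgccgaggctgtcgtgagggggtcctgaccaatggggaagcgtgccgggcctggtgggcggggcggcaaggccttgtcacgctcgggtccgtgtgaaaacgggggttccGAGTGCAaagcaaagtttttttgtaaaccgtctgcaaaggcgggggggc
The cores of MT2A, which lie before the RefSeq start on chromosome 16 and within an annotated exon, are given with up to 5 bases on each side, and positions count back from the start to the first base of the core.
MT2A, -246 from the start: ccgcTGCACCCagccc
MT2A, -168 from the start: ggcccGTGTGCAgagcc
MT2A, -153 from the start: ccgggTGCGCCCggccc
MT2A, -139 from the start: cccagTGCGCGCggccg
MT2A, -88 from the start: ggggcGTGTGCAggcag
MT2A, -54 from the start: gctttTGCACTCgtccc
MT2A, -8 from the start: cgcgcTGCACTCc

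**Figure D1:**
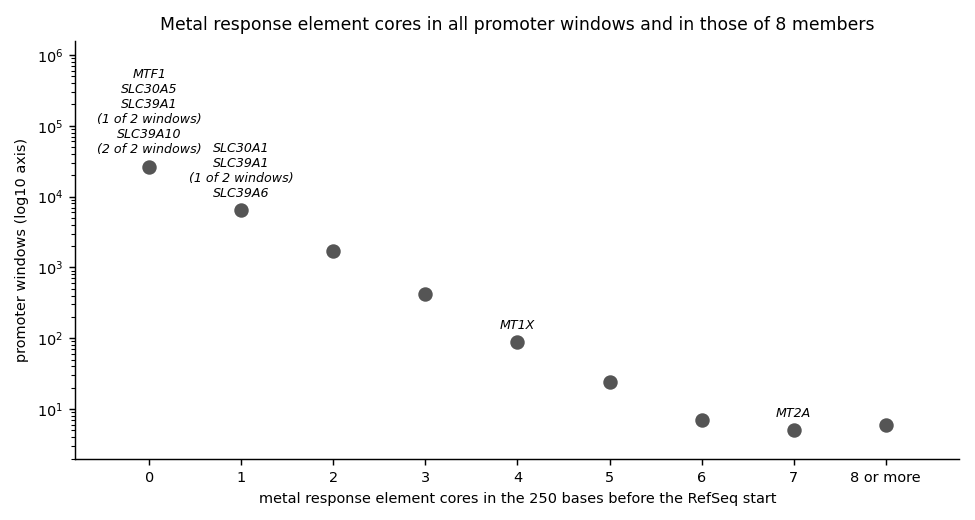
Number of promoter windows (vertical axis, log10) by the number of metal response element cores they hold (horizontal axis). Each point is a count of windows among 35116, and the names mark where the windows of 8 members fall, with MT1X at 4 cores and MT2A at 7.

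The 4 metallothionein members lie together on chromosome 16 (GRCh38, GENCODE 29): MT2A at chr16:56608199-56609497, MT1E at chr16:56625475-56627112, MT1F at chr16:56657694-56660698, and MT1X at chr16:56682424-56684196, all on the plus strand. Because metallothionein genes are related copies that can share reads, the sequence they share was measured as the percentage of a gene's 31-base words also found in transcripts of another gene. Counting any other gene, it was 7.25% for MT2A, 19.8% for MT1X, 15.6% for MT1E, and 3.25% for MT1F. Counting the other members only, it was 3.99% for MT2A, 4.48% for MT1X, 2.50% for MT1E, and 1.96% for MT1F. In MT1X, 292 of the 362 shared words were also found in AC026461.1. Of the transporters, SLC30A1 (chr1:211571568-211578742, minus strand), SLC39A6 (chr18:36108532-36129385, minus strand), and SLC39A10 (chr2:195575977-195737702, plus strand) shared no such word with another gene. MTF1 (chr1:37809567-37859620, minus strand) shared 2.13%, and SLC30A5 (chr5:69093646-69131069, plus strand) shared 12.3%, mostly with the gene AC010273.1. SLC39A1 (chr1:153959099-153968184, minus strand) shared 63.8%, mostly with the overlapping gene AL358472.7, so its counts are the least certain of the 10. The use of strand in counting is not given in the sources used here.

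Sequencing depth was 11308600 to 17483423 counts per sample. Levels are given as CPM, the counts of a gene relative to the library's total, scaled by TMM over all 18 samples, and fold changes come from limma-voom fits of 14164 genes. A gene was called higher or lower at a Benjamini-Hochberg adjusted p under 0.05 with an absolute log2 fold change above 1, and is said to have risen or fallen at an adjusted p under 0.05. ERG, the target of the hairpin, was at 419 ± 12.2 CPM in shERG-DMSO and at 154 ± 3.91 CPM in shERG-Dox (mean ± SD, n = 3), a log2 fold change of -1.44 ± 0.04 (adjusted p = 3.29e-22, limma). The 7 markers of prostate epithelium examined were detected in every sample, at summed levels of 1737 to 1784 CPM in shERG-DMSO, 1917 to 1970.2 CPM in shERG-Dox, 2467 to 2534 CPM in DMSO, and 1435 to 1901 CPM over the PBITE-1 samples. Of 6 markers of other cells, PTPRC, CD3E, and COL3A1 were at or near 0 everywhere. The summed level of the 6 was 1.52 to 2.99 CPM in the samples of the vehicle groups and 3.24 to 9.37 CPM in those of the treated groups, mostly from COL1A1. The part of either list in the results was not tested. Bulk RNA cannot tell fewer cells from less RNA per cell. The labels do not say whether the samples of a group came from separate cultures. The paper's methods name 3 biological replicates for each PBITE-1 time, without saying whether these were separate cultures. The p-values therefore measure the spread between these samples, which may be technical.

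The first comparison asked how the members stood after ERG knockdown. The metallothioneins and the zinc exporter SLC30A1 were lower together, while the importers SLC39A6 and SLC39A10 did not pass the test. All 4 metallothionein members were called lower, by 2.48-fold to 5.15-fold. In all, 5 of the 10 members were called lower and 0 were called higher, where 7.19% of all genes tested were called lower and 12% higher. At the adjusted p alone, 8 members fell (background 35.3%) and 0 rose (background 35.1%). The median log2 fold change of the 10 was -0.76, against 0.02 over all genes.

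Metallothioneins are small cysteine-rich proteins that bind zinc, copper, and cadmium, and MT2A is the form most widely expressed. MT2A was at 65.0, 54.7, and 55.8 CPM in the shERG-DMSO samples and at 13.4, 10.0, and 13.3 CPM in the shERG-Dox samples. Every doxycycline sample lay far below every vehicle sample. The log2 fold change of MT2A was -2.25 ± 0.11 (SE; adjusted p = 2.88e-16, limma). MT1E was at 81.6, 72.0, and 67.4 CPM with vehicle and at 15.2, 13.5, and 14.0 CPM with doxycycline, a log2 fold change of -2.36 ± 0.09 (adjusted p = 8.43e-18, limma). MT1X was at 27.9, 23.9, and 23.0 CPM with vehicle and at 5.44, 5.09, and 4.23 CPM with doxycycline, a log2 fold change of -2.33 ± 0.15 (adjusted p = 1.55e-13, limma). The groups did not overlap for either gene. MT1F, the least abundant of the 4, was at 7.86, 6.64, and 5.76 CPM with vehicle and at 2.79, 2.11, and 3.21 CPM with doxycycline, and its log2 fold change of -1.31 ± 0.21 was the smallest of the family (adjusted p = 4.78e-06, limma).

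MTF1, the transcription factor, fell without being called. It was at 36.0, 35.5, and 35.7 CPM in shERG-DMSO and at 25.0, 25.3, and 28.6 CPM in shERG-Dox. The log2 fold change was -0.45 ± 0.07 (adjusted p = 5.11e-06, limma), and the lowest vehicle sample lay above the highest doxycycline sample.

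SLC30A1 (ZnT1), the exporter that carries zinc across the plasma membrane, was called lower. Its levels were 70.0, 70.8, and 71.4 CPM with vehicle and 31.8, 34.6, and 35.1 CPM with doxycycline, without overlap. The log2 fold change was -1.07 ± 0.06 (adjusted p = 1.20e-14, limma), which is close to the threshold of 1. Scaling by library size alone gave -0.81 and upper-quartile factors gave -0.91, which ended the call but not the fall. Under library size alone the median of all genes moved to 0.28, and the split of calls went from 1699 higher and 1019 lower to 2430 higher and 506 lower. Upper-quartile factors moved that median to 0.18, with 2112 higher and 684 lower. Changes in the VCaP-shERG samples are therefore relative to the bulk of genes.

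SLC30A5 (ZnT5), which loads zinc into the early secretory pathway as a partner of SLC30A6, was at 144, 147, and 149.8 CPM with vehicle and at 135, 135, and 143 CPM with doxycycline. Its log2 fold change of -0.10 ± 0.04 passed the test (adjusted p = 0.0267, limma), but the direction turned to 0.16 under library size alone and to 0.062 under upper-quartile factors. Without any 1 of shERG-DMSO replicates 2 and 3 or shERG-Dox replicates 1 and 2, the adjusted p of SLC30A5 was between 0.0699 and 0.127 with log2 fold changes of -0.10 to -0.08.

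Among the importers, SLC39A6 (ZIP6), the most abundant zinc transporter per base among the members, was at 428, 431, and 428 CPM with vehicle and at 434, 429, and 435 CPM with doxycycline. The groups overlapped, and the 95% interval of the log2 fold change was -0.04 to 0.06 (adjusted p = 0.746, limma). SLC39A10 (ZIP10), which is known to pair with SLC39A6, was at 27.9, 26.9, and 29.1 CPM with vehicle and at 31.05, 30.6, and 30.5 CPM with doxycycline. Its groups did not overlap, yet the log2 fold change of 0.14 ± 0.07 missed the threshold (adjusted p = 0.0877, limma). Both genes passed the test as higher under library size alone, at 0.27 for SLC39A6 and 0.40 for SLC39A10. SLC39A1 (ZIP1), regarded as a main zinc importer of prostate epithelium, fell from 78.3, 76.6, and 73.0 CPM to 61.7, 53.4, and 55.5 CPM, a log2 fold change of -0.42 ± 0.06 (adjusted p = 3.76e-07, limma).

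**Figure D2:**
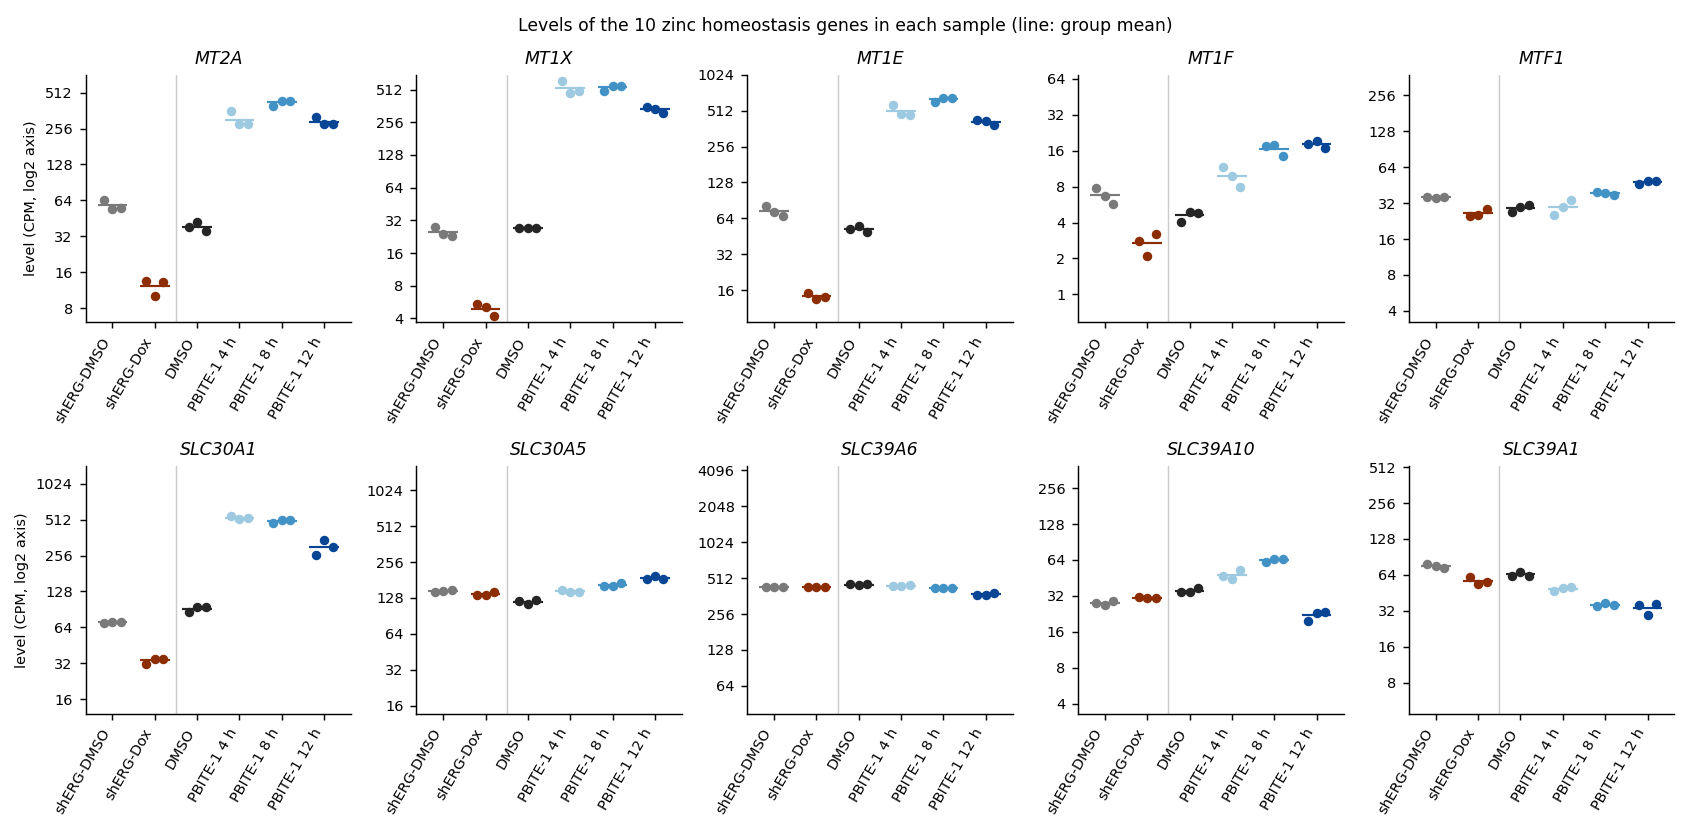
Level of each of the 10 genes (CPM, log2 axis spanning at least the same fold range in each panel) in every sample of the 6 groups. Points are samples and lines are group means (n = 3), and the vertical rule separates VCaP-shERG from parental samples. The group means of MT2A ran from 12.2 CPM in shERG-Dox to 424 CPM at 8 h of PBITE-1, whereas those of SLC39A6 stayed between 373 and 451 CPM.

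The second experiment asked how the members moved over the hours after PBITE-1. The 4 metallothioneins and SLC30A1, all lower with knockdown, were called higher at 4, 8, and 12 h, with folds of 2.10 to 19.5 at 4 h. At 4 h, 5 of the 10 members were called higher and 0 lower, where 7.28% of all genes were called higher and 2.99% lower. At the adjusted p alone, 7 rose (background 26.4%) and 1 fell (background 24.7%). The median log2 fold change of the 10 was 0.76, against -0.01 over all genes.

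MT1X showed the largest fold of the 10. It was at 27.1, 27.3, and 27.1 CPM in DMSO, at 613, 477, and 495 CPM at 4 h, at 499, 556, and 556 CPM at 8 h, and at 357, 342, and 309.9 CPM at 12 h. The log2 fold changes were 4.29 ± 0.10, 4.32 ± 0.09, and 3.66 ± 0.10 in order of time, with adjusted p = 5.73e-31, 7.35e-32, and 1.17e-29 (limma). All treated samples lay far above all DMSO samples, and the samples of 4 and 8 h overlapped.

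MT2A was at 38.7, 41.8, and 35.3 CPM in DMSO, at 357, 279, and 277 CPM at 4 h, at 394, 439.8, and 438 CPM at 8 h, and at 319.9, 278, and 281 CPM at 12 h. Its log2 fold changes were 2.99 ± 0.09, 3.48 ± 0.09, and 2.96 ± 0.09 (adjusted p at most 2.26e-27, limma). MT1E ran in parallel, at 52.1, 55.5, and 49.5 CPM in DMSO, 571, 483, and 472 CPM at 4 h, 609.8, 648, and 657 CPM at 8 h, and 431, 423, and 389 CPM at 12 h, with log2 fold changes of 3.30 ± 0.07, 3.63 ± 0.07, and 3.02 ± 0.07. Both genes were highest at 8 h, and their 8 h samples lay above all samples of the other times.

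MT1F, the least abundant member of the family, went on rising after 4 h. It was at 4.07, 4.93, and 4.84 CPM in DMSO, 11.6, 9.75, and 7.89 CPM at 4 h, 17.4, 18.005, and 14.6 CPM at 8 h, and 18.1, 19.2, and 17.01 CPM at 12 h. The log2 fold changes were 1.07 ± 0.17, 1.88 ± 0.16, and 2.00 ± 0.15 (adjusted p at most 1.67e-06, limma). At 4 h its call rested on the threshold: without DMSO replicate 1 the value was 0.99, and without PBITE-1 4 h replicate 1 it was 0.94, so that 4 members were then called. From 4 to 12 h, MT1F rose by 0.94 ± 0.13 on the log2 scale, whereas MT1X fell by 0.62 and MT1E fell by 0.27 (adjusted p at most 5.17e-06, limma).

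Counts of the metallothioneins were also summed, because the sharing of reads among copies cannot be resolved. The sum of all 14 metallothionein rows fell by 2.18 on the log2 scale with knockdown, and rose by 3.46, 3.73, and 3.14 at 4, 8, and 12 h of PBITE-1 (adjusted p at most 2.10e-19, limma). The 4 members held at least 93.2% of that sum in every group on average, and at least 99.8% in the PBITE-1 groups. Within the 4, MT1X went from 22.2% of the counts in DMSO to 39.1% at 4 h, while MT2A went from 31.4% to 22.5% and MT1F from 3.77% to 0.719%. With knockdown MT1X was at 14.5% against 15.2% with vehicle, MT2A at 35.8% against 35.7%, and MT1E at 41.8% against 45.0%.

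**Figure D3:**
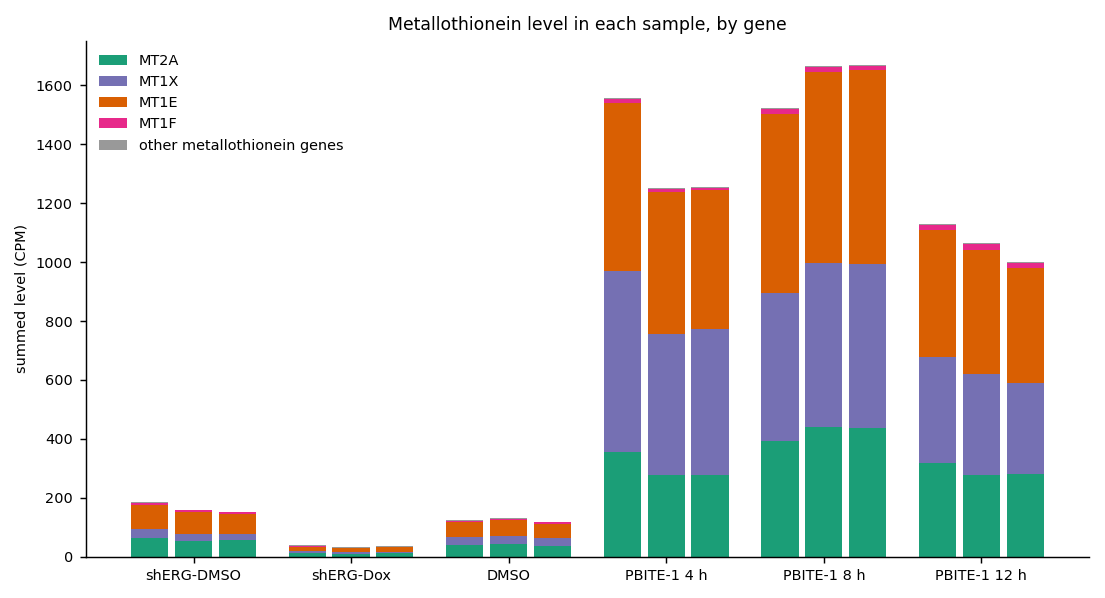
Summed level of the metallothionein genes (CPM, linear axis from 0) in each of the 18 samples, with bars divided by gene. The shERG-Dox bars reach at most 39.1 CPM, the DMSO bars at most 130.45 CPM, and the 8 h bars at least 1523 CPM, and MT2A, MT1X, and MT1E fill nearly all of each PBITE-1 bar.

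SLC30A1, which shares no sequence word with another gene, was also raised at every time. It was at 85.3, 94.97, and 95.6 CPM in DMSO, at 549.7, 519, and 524 CPM at 4 h, at 476, 508, and 513 CPM at 8 h, and at 257, 346, and 304 CPM at 12 h. The log2 fold changes were 2.55 ± 0.06, 2.46 ± 0.06, and 1.75 ± 0.07 (adjusted p at most 1.18e-24, limma). In order of level, its groups ran 4 h, 8 h, 12 h, DMSO, shERG-DMSO, and shERG-Dox, and no neighbours in that order overlapped. From 4 to 12 h the log2 fold change of SLC30A1 was -0.80 ± 0.05 (adjusted p = 3.65e-16, limma).

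MTF1 did not pass the test at 4 h, when the metallothioneins and SLC30A1 were already called higher. It was at 26.9, 29.97, and 31.1 CPM in DMSO and at 25.3, 29.4, and 34.1 CPM at 4 h, with full overlap, and the 95% interval of its log2 fold change was -0.14 to 0.20 (adjusted p = 0.803, limma). At 8 h it was at 40.0, 39.1, and 37.4 CPM and at 12 h at 46.6, 48.7, and 49.0 CPM, above all DMSO samples. These correspond to log2 fold changes of 0.43 ± 0.08 and 0.75 ± 0.08 (adjusted p = 7.03e-06 and 1.53e-11, limma), and 12 h exceeded 4 h by 0.72 ± 0.08. The groups of MTF1 ran 12 h, 8 h, shERG-DMSO, 4 h, DMSO, and shERG-Dox in order of level, and the samples of 4 h, DMSO, and shERG-Dox overlapped one another.

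SLC30A5 rose stepwise with time of PBITE-1. It was at 121, 114, and 123 CPM in DMSO, 149.5, 143, and 145 CPM at 4 h, 162, 163, and 172 CPM at 8 h, and 186, 197, and 183 CPM at 12 h, with no overlap between any of these groups. The log2 fold changes were 0.31 ± 0.05, 0.49 ± 0.05, and 0.70 ± 0.05 (adjusted p at most 7.31e-07, limma).

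The importers followed courses of their own. SLC39A10 rose and then fell: it was at 34.5, 34.6, and 37.1 CPM in DMSO, 47.3, 44.0, and 53.1 CPM at 4 h, 61.1, 64.9, and 65.6 CPM at 8 h, and 19.8, 23.1, and 23.5 CPM at 12 h. No pair of these groups overlapped. Against DMSO its log2 fold changes were 0.46 ± 0.07, 0.87 ± 0.07, and -0.64 ± 0.08 in order of time (adjusted p at most 1.35e-06, limma). Set directly against each other, 12 h lay below 8 h by a log2 fold change of -1.51 ± 0.08 and below 4 h by -1.10 ± 0.08 (adjusted p = 5.36e-19 and 1.10e-14, limma), and SLC39A10 was the 1 member called lower in both.

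SLC39A1 fell at each time. It was at 63.0, 68.2, and 62.1 CPM in DMSO, 47.0, 49.9, and 50.5 CPM at 4 h, 35.4, 37.1, and 35.5 CPM at 8 h, and 35.9, 29.4, and 36.4 CPM at 12 h. The log2 fold changes were -0.37 ± 0.07, -0.81 ± 0.07, and -0.90 ± 0.07 (adjusted p at most 1.06e-05, limma), and the samples of 8 and 12 h overlapped. SLC39A1 thus fell with ERG knockdown and at all 3 times of PBITE-1, with the limit that most of its sequence words also belong to an overlapping gene.

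SLC39A6 changed least. It was at 456, 444, and 454 CPM in DMSO, 437, 443, and 449.9 CPM at 4 h, 424, 419.6, and 419.6 CPM at 8 h, and 367, 368, and 386 CPM at 12 h. The 95% interval of its log2 fold change at 4 h was -0.07 to 0.06. At 8 h the value of -0.07 ± 0.03 missed the threshold (adjusted p = 0.0565, limma) and passed it under 7 of 21 alternatives, and at 12 h SLC39A6 fell by 0.23 (adjusted p = 9.76e-08, limma).

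At 8 h, 5 of the 10 members were called higher and 0 lower, where 14.9% of all genes were called higher and 8.86% lower. At the adjusted p alone 8 rose (background 35.9%) and 1 fell (background 37%). At 12 h, 5 were again called higher and 0 lower, where the background had grown to 17.1% and 15.4%. At the adjusted p alone 7 rose and 3 fell, against 39.4% of all genes in each direction, so the count that fell was near the background. The median log2 fold change of the 10 was 1.38 at 8 h and 1.25 at 12 h, against -0.02 and -0.01 over all genes.

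**Figure D4:**
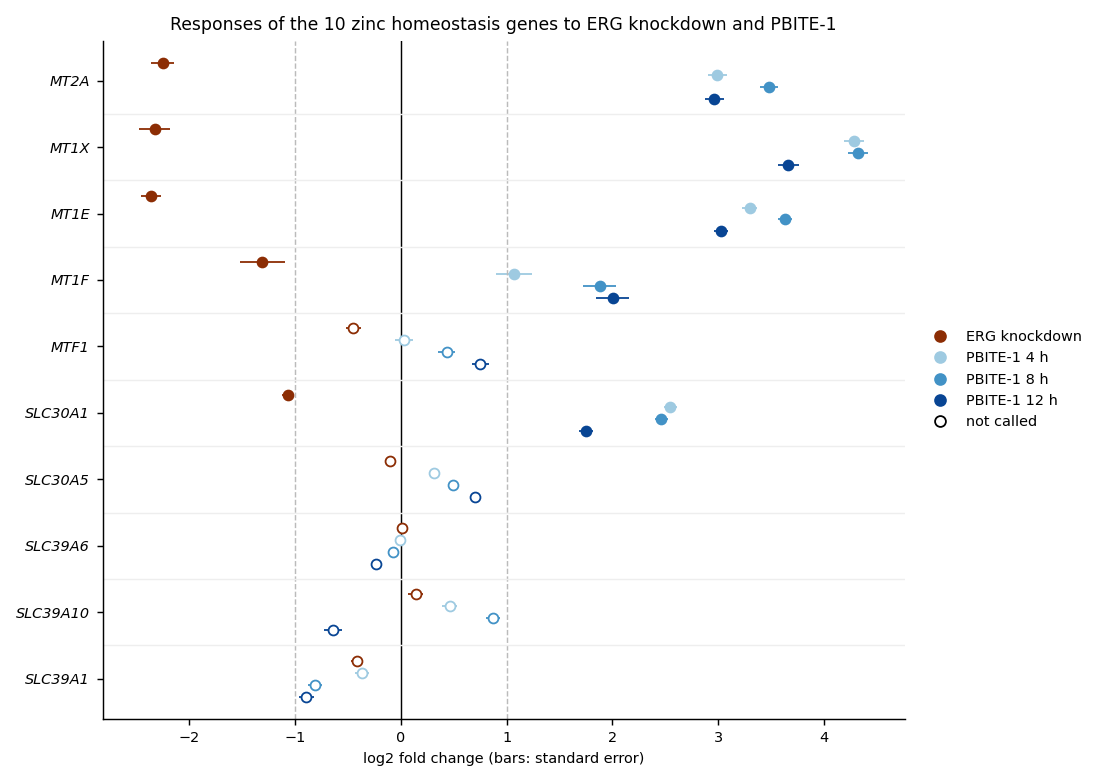
Log2 fold change of each member (horizontal axis, bars are standard errors) under ERG knockdown and after 4, 8, and 12 h of PBITE-1. Filled points passed both the adjusted p and the threshold of 1, which the dashed lines mark. The metallothioneins and SLC30A1 lie left of -1 under knockdown and right of 1 at every time of PBITE-1.

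Between 4 and 12 h of PBITE-1, 1 member was called lower and 0 higher, where 11% of all genes were called lower and 9.08% higher. Without PBITE-1 4 h replicate 1 the members called numbered 2, since MT1F then rose by 1.06 on the log2 scale. Between 8 and 12 h, a comparison added after the data had been seen, 1 member was called lower and 0 higher, against 6.59% and 3.48% of all genes. In that interval MT2A, MT1X, and MT1E fell by 0.52, 0.66, and 0.61 on the log2 scale and SLC30A1 fell by 0.71 (adjusted p at most 9.06e-10, limma). MT1F and SLC39A1 did not pass the test in that interval, with log2 fold changes of 0.12 and -0.08.

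The difference between the 12 h response to PBITE-1 and the response to ERG knockdown was tested itself, as an interaction over all 18 samples. Cell line, any difference in handling, and duration of treatment cannot be told apart in it. Here 6 of the 10 members were called higher and 0 lower, where 13% of all genes were called higher and 15.9% lower. The difference was 5.18 ± 0.17 for MT2A, 5.95 ± 0.24 for MT1X, 5.35 ± 0.14 for MT1E, and 3.27 ± 0.27 for MT1F on the log2 scale. It was 2.78 ± 0.11 for SLC30A1 and 1.16 ± 0.11 for MTF1 (adjusted p at most 7.24e-13 for these 6, limma). For MTF1 the difference was 0.90 under library size alone, below the threshold. That scaling moved the median difference of all genes to -0.28 and the calls from 1840 higher and 2255 lower to 1313 and 3066. ERG itself fell in both settings, to 99.2 CPM at 12 h of PBITE-1 from 303 CPM in DMSO, a log2 fold change of -1.58 ± 0.05, beside -1.44 ± 0.04 with knockdown. The difference between these was -0.17 ± 0.06 (adjusted p = 0.0101, limma).

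The vehicle groups were compared to see how the lines differ at rest, with the hairpin vector, the line, and any difference in handling inseparable. No member was called in either direction (0 of 10), where 1.19% of all genes were called higher and 5% lower in shERG-DMSO. At an adjusted p under 0.05, MT2A was higher in shERG-DMSO with a log2 fold change of 0.60 ± 0.10, MT1F with 0.53 ± 0.18, MT1E with 0.49 ± 0.08, SLC30A5 with 0.30 ± 0.04, MTF1 with 0.28 ± 0.08, and SLC39A1 with 0.24 ± 0.06. In the same test SLC30A1 was lower with -0.38 ± 0.08, SLC39A10 with -0.34 ± 0.08, and SLC39A6 with -0.07 ± 0.03. MT1X did not pass the test, with a 95% interval of -0.39 to 0.12.

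Levels were compared between members only per kilobase of annotated exon, a measure that understates genes whose longer transcripts are little used. In DMSO the order was SLC39A6 (123 ± 1.66 CPM per kb), MT1E (49.8 ± 2.84), MT2A (29.7 ± 2.52), SLC30A5 (20.6 ± 0.845), SLC39A1 (19.0 ± 0.974), SLC30A1 (16.8 ± 1.05), MT1X (15.3 ± 0.0779), SLC39A10 (5.12 ± 0.211), MTF1 (3.66 ± 0.268), and MT1F (2.44 ± 0.250). SLC30A5 and SLC39A1 were the only neighbours whose mean ± SD ranges overlapped. At 8 h of PBITE-1, 3 of the 4 metallothioneins stood above SLC39A6, with MT1E at 607 ± 23.8, MT2A at 326 ± 19.7, and MT1X at 303 ± 18.5 CPM per kb, against 114 ± 0.749 for SLC39A6 and 91.2 ± 3.65 for SLC30A1, while MT1F was at 8.81 ± 0.976. The ranges of MT2A and MT1X overlapped. In shERG-Dox, MT1E was at 13.5 ± 0.819 CPM per kb, MT2A at 9.42 ± 1.46, SLC30A1 at 6.18 ± 0.325, and MT1X at 2.77 ± 0.351, all below SLC30A5 at 23.7 ± 0.774.

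The rest of the zinc transporters and metallothioneins did not move as a group. A list of 27 such genes was considered, of which 23 had a row and 17 were tested. Of the 17, 3 were called higher and 1 lower with knockdown, 2 higher and 1 lower at 4 h, 3 higher and 2 lower at 8 h, and 2 higher and 2 lower at 12 h. Over all genes, 12% were called higher and 7.19% lower with knockdown, and 7.28% and 2.99% at 4 h. Those shares were 14.9% and 8.86% at 8 h, and 17.1% and 15.4% at 12 h. Their median log2 fold changes were -0.19, -0.10, -0.10, and 0.30. MT1G, MT1H, and MT1M had too few counts to test, and MT3 and MT1L stayed at or below 1.75 CPM in every sample. MT1A, MT1B, MT4, and SLC39A12 were not analysed here.

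The largest changes among the others with enough counts were in single transporters. SLC30A4 (ZnT4), which loads zinc into endosomes and secretory vesicles, was higher with knockdown, at 444 ± 12.8 CPM against 180.4 ± 10.8 CPM (log2 fold change 1.30 ± 0.04, adjusted p = 6.31e-21, limma), opposite to SLC30A1. SLC39A8 (ZIP8), an importer of zinc and manganese, was lower, at 1.96 ± 0.243 CPM against 8.12 ± 0.455 CPM (-2.03 ± 0.22). After PBITE-1, SLC30A2 (ZnT2), a vesicular transporter, rose from 3.27 ± 0.467 CPM in DMSO to 14.7 ± 1.62 CPM at 8 h and 6.79 ± 1.75 CPM at 12 h, log2 fold changes of 2.22 ± 0.18 and 1.09 ± 0.20. SLC39A3 (ZIP3) was lower at 8 h (-1.44 ± 0.15), and SLC39A4 (ZIP4), the importer mutated in acrodermatitis enteropathica, was lower at 12 h (-1.34 ± 0.24). The adjusted p of these changes was at most 7.97e-06 (limma). The other genes called, named after their values were seen, were SLC30A3, SLC30A10, and MT1L, all with low counts. SLC30A10 was called higher with knockdown (3.01 ± 0.43) and lower at 4, 8, and 12 h of PBITE-1 (-1.63, -1.70, and -2.80). SLC30A3 was called higher with knockdown and at 4, 8, and 12 h, and MT1L was called higher at 4 and 8 h.

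**Figure D5:**
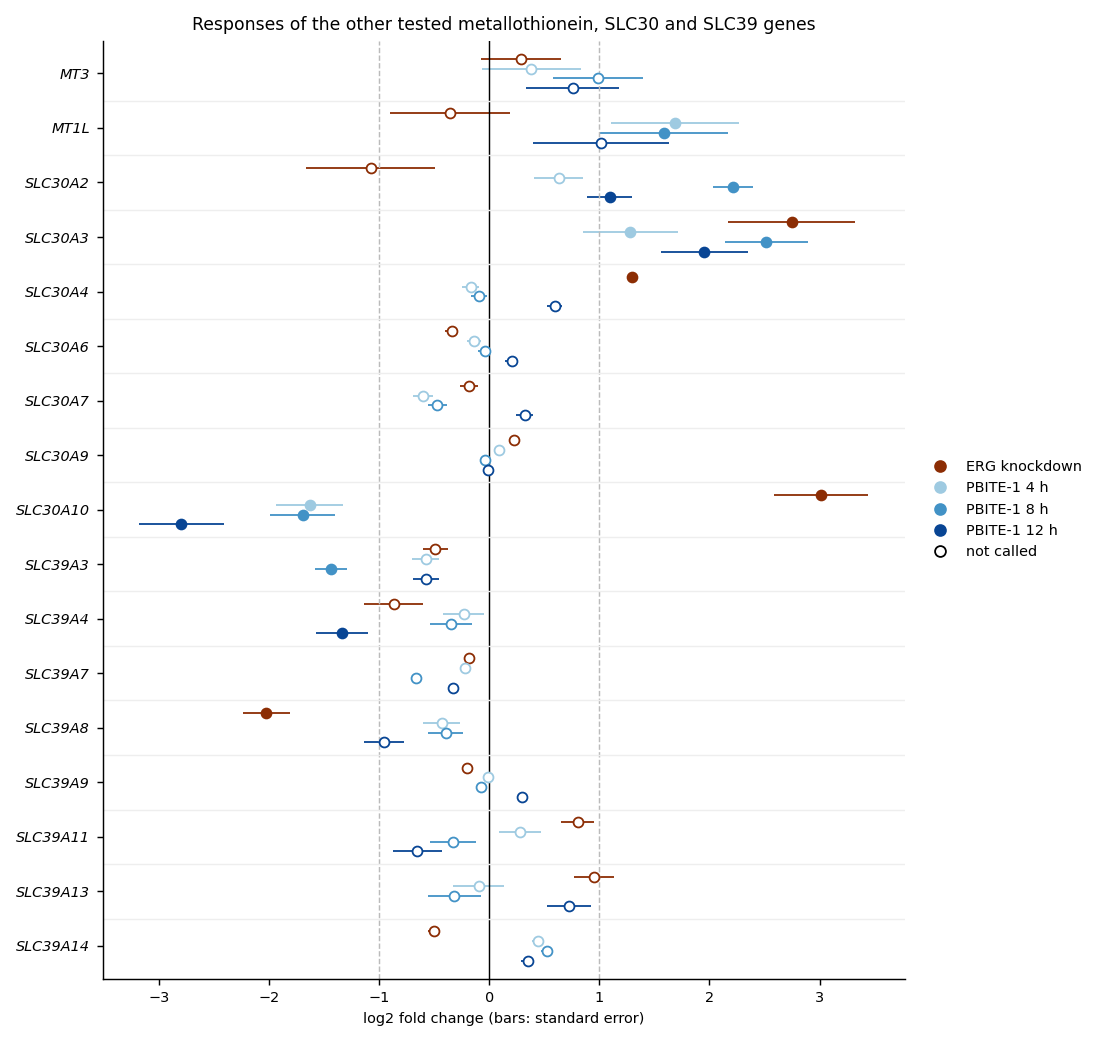
Log2 fold change (horizontal axis, bars are standard errors) of the 17 other metallothionein, SLC30, and SLC39 genes tested, under ERG knockdown and after 4, 8, and 12 h of PBITE-1. Filled points were called, and in contrast to SLC30A1 most points lie between the dashed lines at -1 and 1.

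Genes of copper and iron handling served as a further list. Of 12 tested, 2 were called higher and 1 lower with knockdown, 1 higher and 0 lower at 4 h, 3 higher and 1 lower at 8 h, and 5 higher and 0 lower at 12 h. The shares of all genes called higher and lower were 12% and 7.19% with knockdown and 7.28% and 2.99% at 4 h. At 8 h they were 14.9% and 8.86%, and at 12 h 17.1% and 15.4%. Their median log2 fold changes were 0.35, 0.11, 0.29, and 0.58. Named after their values were seen, HMOX1, the heme oxygenase that frees iron from heme, was called higher in each of the 4 comparisons from vehicle samples with almost no counts. It had 0 to 2 counts per sample in shERG-DMSO and 4 to 14 in shERG-Dox, and 1 to 3 in DMSO. Over the 3 times of PBITE-1 the counts per sample ranged from 20 to 206, and the size of its fold is poorly determined. TFRC, the transferrin receptor, was called lower with knockdown, with a log2 fold change of -1.91. The copper transporter gene SLC31A2 was called higher with knockdown and at 8 and 12 h, the ferritin gene FTL at 8 and 12 h, and FTH1 and CCS at 12 h, whereas the iron transporter gene SLC11A2 was called lower at 8 h.

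The genes with the course most like that of SLC30A1 over the 18 samples were RASL11A (Pearson r of log2 CPM 0.991), NRARP (0.988), and CDC42EP2 (0.987). For MTF1 they were MED30 (0.953), OCLN (0.945), and NADK2 (0.941). These values describe samples that fall into 6 groups and share libraries, so they mostly follow the differences between groups.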

How the data were processed

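RNA-seq was performed on 18 samples of VCaP cells, with 3 in each of 6 groups taken from the labels. The authors deposited raw read counts per Ensembl gene, from rRNA-depleted total RNA. The submitters' processing notes name STAR, featureCounts, and hg38, whereas the methods of the study name Kallisto, and which of these made the deposited counts is not given in the sources used here. Of 22034 genes, 22011 were matched to a symbol (GENCODE 29). Genes were filtered with filterByExpr over the 6 groups, scaled by TMM (edgeR 4.0.16), and fitted with limma-voom (limma 3.58.1, R 4.3.3) within each experiment, or over all 18 samples for the interaction and the line difference. P-values were adjusted by Benjamini-Hochberg over the 14164 genes tested. The fits were tested on simulated data. The members and lists were chosen with earlier results of these data known. All 10 members were named, as were ERG, for each treatment comparison up to 3 other zinc genes called in each direction with a mean count of at least 50, and the 3 genes most like SLC30A1 and MTF1. Alternatives comprised edgeR's quasi-likelihood test, DESeq2 1.42.0, other scalings and filters, a replicate block, summed metallothionein counts, and leaving out each sample. Within groups, counts of every pair of samples differed by more than sampling noise (chi-square per degree of freedom 1.70 to 5.04 over 18 pairs). The comparison of 12 h with 8 h was added after the data had been seen. Promoter windows came from RefSeq (GRCh38.p14). Of the prostate epithelium markers listed, 1 is not reported here.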

Additional observations from a re-analysis of the deposited data

Results flagged for a closer look

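The responses to 12 h of PBITE-1 and to ERG knockdown differed for 6 members by the test of the difference itself. The 12 h response exceeded the knockdown response by 5.18 on the log2 scale for MT2A, 5.95 for MT1X, 5.35 for MT1E, 3.27 for MT1F, 2.78 for SLC30A1, and 1.16 for MTF1. Treatment, cell line, and any difference in handling cannot be told apart in this difference. SLC39A10 differed between times of PBITE-1, with a log2 fold change of -1.10 at 12 h against 4 h, after having been above DMSO at 4 h and below it at 12 h.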

How the results depend on the processing

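Of 1752 values of the members' log2 fold changes under the alternatives, 1717 kept their side of the adjusted p threshold without a counted reversal. Another 16 no longer passed it, 14 newly passed it, and 5 reversed. A change of direction was counted as a reversal only where the main or the alternative value passed that threshold. SLC30A5 reversed with knockdown, to 0.062 under upper-quartile factors and 0.16 under library size alone. Summing the metallothionein counts into 1 feature gave -0.32 in place of the rise of MT1F from 4 to 12 h, -0.59 for MT1F from 8 to 12 h, and 0.41 for MT1X between the vehicle groups, because the sum follows the more abundant genes. The number of members called from 4 to 12 h lay between 1 and 2 when each sample was left out, with 2 without PBITE-1 4 h replicate 1. SLC39A10 passed the threshold of 1 in the difference between responses under library size alone (-1.08). With the replicate block, 5 members were called with knockdown and at 4, 8, and 12 h, 1 from 4 to 12 h and from 8 to 12 h, 6 in the difference between responses, and 0 between the vehicle groups, as without it. Same-numbered samples did not deviate together (r from -0.02 to 0.04, 0 of 12 pairs over 0.1), so no pairing by number was seen. That does not exclude that same-numbered samples were handled together. SLC39A6 at 8 h passed the test under the replicate block, at -0.07. Over all genes, requiring at least 10 counts in every sample gave 915 higher and 749 lower with knockdown (1699 and 1019 otherwise), 554 and 213 at 4 h (1031 and 424), 1354 and 788 at 8 h (2105 and 1255), 809 and 1066 from 4 to 12 h (1286 and 1561), 276 and 530 from 8 to 12 h (493 and 933), and 56 and 330 between the vehicle groups (168 and 708), with fewer genes tested. With no filter the vehicle groups gave 274 and 943. MT1F had 29 to 289 counts per sample, which limits its precision most among the members.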
